A study of Mus musculus with 6 samples.

Results

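The F-box protein gene family was followed in RAW264.7 cells, a mouse macrophage-like line, that carried a vector for the family member Fbxw11. Members were the protein-coding rows of the deposited gene table whose symbol begins with Fbxw, Fbxl or Fbxo followed by a number. The rule gave 77 genes of 56748 in the table, namely Fbxw11 and 76 others. Bulk RNA sequencing was done on 6 libraries from sorted cells, 3 from cells infected with lentivirus carrying Fbxw11 (pMSCV-Fbxw11-pGk-GFP) and 3 from cells infected with the control vector, named GFP in the library names. The labels do not say what else the control vector holds, whether the cells had been stimulated, or whether replicate libraries go back to separate infections or cultures, so p-values reflect how much these libraries vary, and that variation may be technical. By its title, the study concerned macrophage polarization and activity against leukemia.

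F-box proteins are the interchangeable part of the SCF ubiquitin ligases. The F-box motif binds Skp1, Skp1 binds the scaffold Cul1, and Cul1 holds the RING protein Rbx1, which brings in the ubiquitin-charged enzyme. The rest of each F-box protein chooses the substrate, and the family is named by that part: Fbxw proteins have WD40 repeats, Fbxl proteins have leucine-rich repeats, and Fbxo proteins have other domains. Fbxw11 encodes β-TrCP2, which with its paralog β-TrCP1 (gene Btrc) recognises phosphorylated substrates that include the NF-kB inhibitor IκBα and β-catenin. Because the libraries measure RNA, they say nothing of the abundance or activity of these ligases.

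The libraries held between 16191971 and 18951653 reads, recovered from the FPKM values (fragments of a gene, scaled by its length and by the size of the library). Of 10 macrophage markers, 9 lay between 19.3 and 2653 FPKM in every library, while Mertk was listed at 0 in 5 of the 6. Of the 9 tested, 4 rose and 0 fell, where 4.60% of all tested genes rose. The 10 summed to 4224 to 4398 FPKM in the controls and to 4681 to 4806 in the Fbxw11 libraries. Lyz2 made up the largest part of that sum, with means of 2346 and 2628 FPKM, control before Fbxw11. Csf1r was lower with the Fbxw11 vector (means of 154 and 147 FPKM) and did not pass. The B cell markers Cd79a and Ms4a1 were each between 0.787 and 2.58 FPKM, with sums of 3.36 to 3.61 in control and 2.19 to 3.37 in Fbxw11 libraries. None of 13 markers of T cells, epithelium, fibroblasts, mast cells and erythroid cells exceeded 0.363 FPKM in any library. Control library 3 and Fbxw11 library 3 stood apart from the other 4 on the second principal component (23.7% of the variance).

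Fbxw11 was the most abundant family member already in the control cells, and in the Fbxw11 cells its FPKM alone about equalled that of the rest of the family together. It stood at 35.8, 36.5 and 36.0 FPKM in control libraries 1 to 3 and at 273.6, 272 and 268 FPKM in Fbxw11 libraries 1 to 3. The group means were 36.1 ± 0.409 and 271 ± 2.74 FPKM (SD, n = 3). The log2 fold change was 2.88 (SE 0.028, adjusted p = 8.54e-08, limma with Benjamini-Hochberg adjustment), the smallest p-value of all genes tested. This checks the labels, and reads of the vector and of the endogenous gene on chromosome 11 cannot be told apart in it. FPKM divides all these reads by the gene length of 4327 bases, and the length transcribed from the vector is not given. The FPKM of Fbxw11 with the vector, and shares taken from it, depend on that length.

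The other 76 members summed to 258.7, 260.3 and 270.1 FPKM across control libraries 1 to 3, and to 266.7, 261.3 and 263.7 FPKM across Fbxw11 libraries 1 to 3. These sums overlapped, with means of 263.0 ± 6.19 and 263.9 ± 2.71 (SD, n = 3). Fbxw11 therefore went from 12.1% ± 0.284 of the family's summed FPKM in control to 50.7% ± 0.289 in Fbxw11 libraries (n = 3), while the remainder kept a like total.

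**Figure D1:**
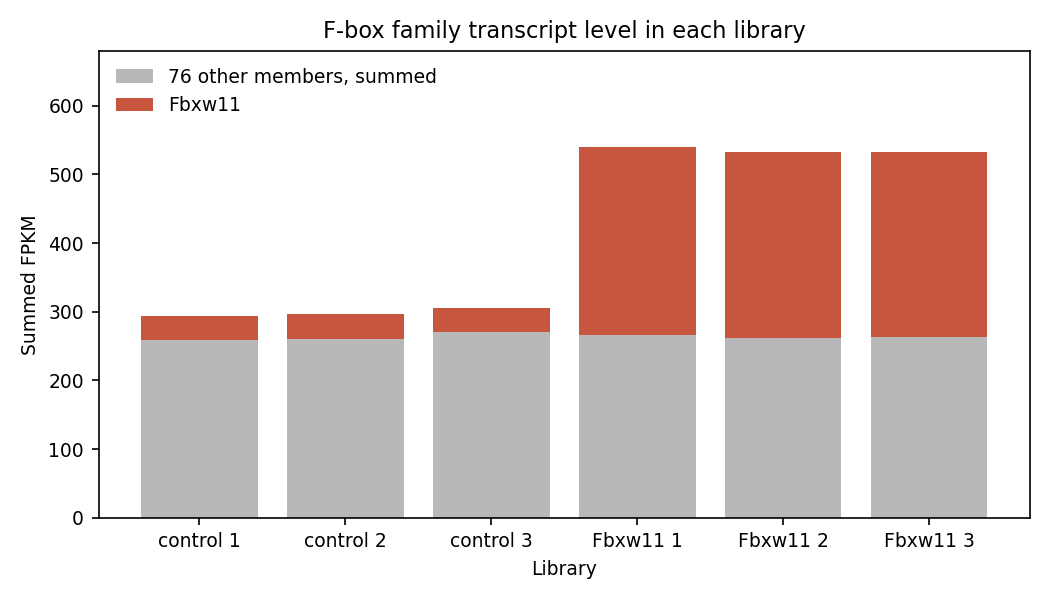
Summed FPKM of the F-box family in each of the 6 libraries (bars from 0), with the 76 members other than Fbxw11 in grey and Fbxw11 in red on top. The grey parts lie between 258.7 and 270.1 FPKM in all 6 libraries, while the red part is 35.8 to 36.5 FPKM in the controls and 268 to 273.6 FPKM with the Fbxw11 vector.

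Btrc, the closest relative of Fbxw11, falls outside the naming rule and stayed near 1 FPKM. It was at 0.953, 1.04 and 0.914 FPKM in control libraries 1 to 3 and at 0.922, 0.987 and 0.906 FPKM in Fbxw11 libraries 1 to 3, between 254 and 339 reads per library. The groups overlapped, and with a mean under 1 FPKM it was not tested. The level of Btrc in cells with so many Fbxw11 reads bears on whether reads were assigned to the wrong paralog, so the coding sequences were compared. The longest coding sequences of the pair in GENCODE M21 (GRCm38) are 1689 bases for Fbxw11 and 1815 for Btrc, and 75.3% of 1677 aligned bases were identical, with no identical run longer than 22 bases. The most alike stretch of 60 bases within single exons is shown to make the separation visible, 5′ to 3′ on the + strand, with bases that differ between the genes in capitals. It lies in exon 9 of Fbxw11 (chr11:32735216-32735275) and exon 10 of Btrc (chr19:45515936-45515995), both coding, with 52 bases identical and 8 different.
Fbxw11: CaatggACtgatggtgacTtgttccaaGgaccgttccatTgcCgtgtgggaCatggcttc
Btrc: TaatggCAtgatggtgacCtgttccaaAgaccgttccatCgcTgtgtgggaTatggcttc

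No window of 50 bases in the annotated protein-coding transcripts of Fbxw11 occurred in a transcript of any other gene. This held for 23 of the 43 tested members, Fbxw11 among them, and 28 had under 1% of windows shared. The largest shares belonged to Fbxl12 (38.7%, with Ubl5 on the opposite strand), Fbxw8 (34.4%, with Gm9754 on the opposite strand), Fbxl15 (22.3%, with Cuedc2 on the opposite strand) and Fbxw4 (19.5%). Gm9754 averaged 0.0751 FPKM. Fbxo34 (18.6%) and Fbxo22 (14.0%) followed, each with windows found in many genes. The sources used here do not give how counting treated strand or shared reads, and the levels of these members are less certain than the rest.

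The other members ranged from abundant to 0 reads. Of the 76, 7 averaged at least 10 FPKM over the 6 libraries, 12 between 5 and 10 FPKM, 23 between 1 and 5 FPKM, 8 between 0.1 and 1 FPKM and 8 above 0 but under 0.1 FPKM. The remaining 18 had 0 reads throughout, and counting error alone would allow up to 3 reads in a library. Members with a mean of at least 1 FPKM entered the test, 42 besides Fbxw11. Just above that line were Fbxl8 (1.23 ± 0.196 and 1.35 ± 0.160 FPKM, control before Fbxw11, SD, n = 3), Fbxl12 (0.974 ± 0.0827 and 1.11 ± 0.182) and Fbxl18 (0.972 ± 0.0868 and 1.03 ± 0.0699). Just below it were Fbxo39 (0.965 ± 0.0654 and 0.620 ± 0.283 FPKM), Fbxo31 (0.887 ± 0.114 and 0.671 ± 0.255) and Fbxo36 (0.614 ± 0.0920 and 0.754 ± 0.296).

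**Figure D2:**
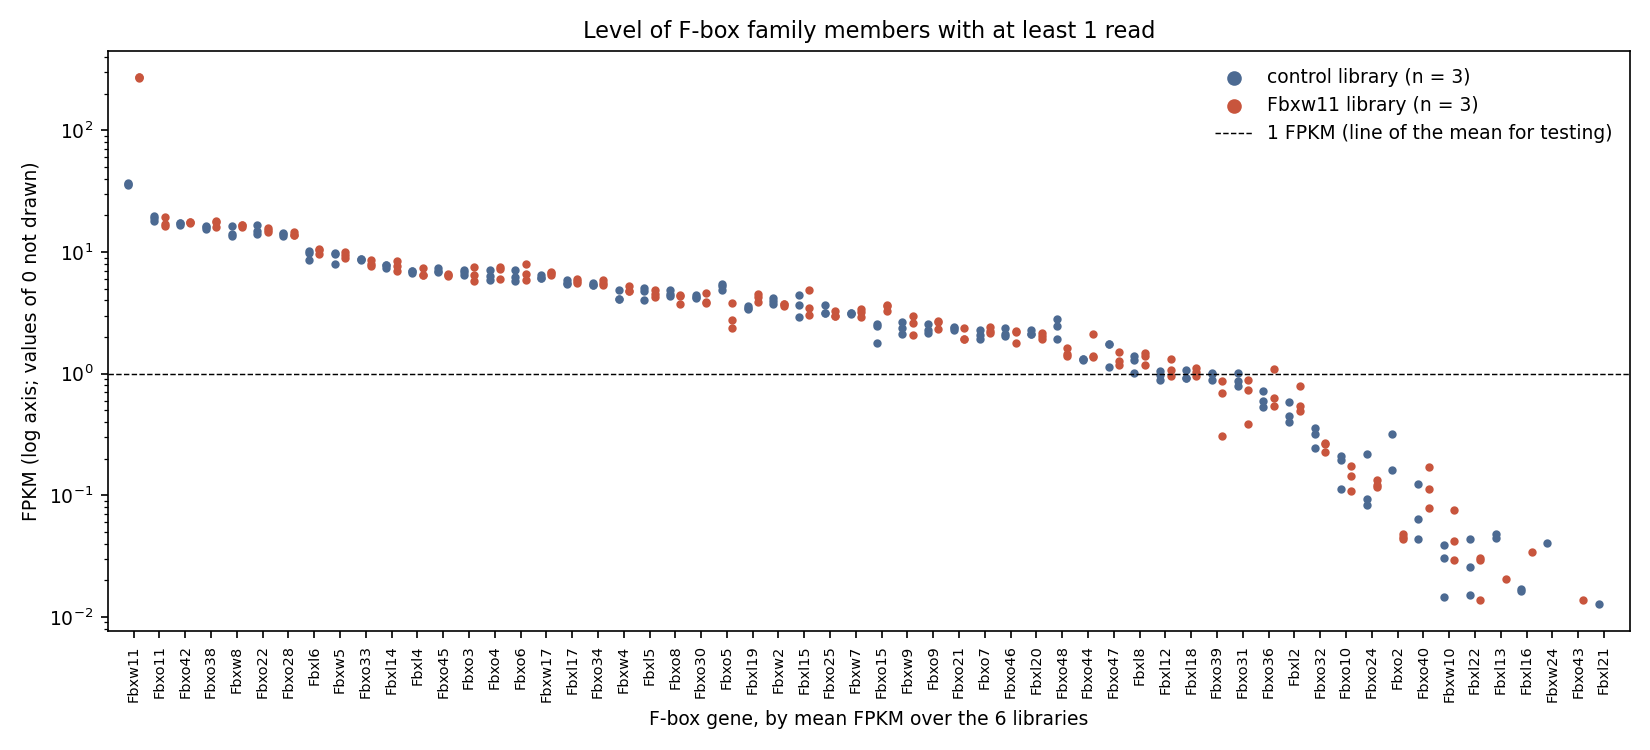
FPKM of the F-box family members with at least 1 read, 1 member not drawn, on a log axis, ordered by mean over the 6 libraries, with 3 control points (blue) and 3 Fbxw11 points (red) per gene and a dashed line at 1 FPKM. Fbxw11 stands apart at the left in the Fbxw11 libraries, and for most other members the blue and red points overlap.

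The members with 0 reads were not spread evenly over the family. Of 22 Fbxw genes besides Fbxw11, 13 had 0 reads, against 1 of 18 Fbxl genes and 4 of 36 Fbxo genes. All 13 lie side by side on chromosome 9 among 14 Fbxw genes, every gene on the minus strand, within 651 kb (9:108968515-109619738 in the file's own coordinates, whose build is not stated), with no other protein-coding gene fully inside. The exception there was Fbxw24, with 1 read in all. Windows shared with other genes were searched only for tested members, and how shared reads were counted is not known. Whether 0 reads in this cluster means no transcript was thus not tested. Outside that cluster, the genes at 0 were Fbxl7, Fbxo16, Fbxo17, Fbxo27 and Fbxo41. Fbxo17 and Fbxo27 belong to the glycoprotein-binding F-box proteins, whose relatives on chromosome 4 were at low to moderate levels: Fbxo6 at 6.35 ± 0.638 FPKM in control libraries, Fbxo44 at 1.30 ± 0.00960 and Fbxo2 at 0.161 ± 0.160. Fbxo32 (atrogin-1), the muscle atrophy F-box gene, averaged 0.308 ± 0.0572 FPKM in the controls and 0.253 ± 0.0244 FPKM with the Fbxw11 vector.

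Beside Fbxw11, 2 members passed the test. Of the 42 tested, 1 rose (Fbxo15) and 1 fell (Fbxo5) in the Fbxw11 libraries, that is 4.76% called. Of all 10898 tested genes, 9.24% passed the same limma test at an adjusted p under 0.05 (4.60% rose and 4.64% fell). With 42 genes, 2 calls cannot be told apart from the 9.24%. The library values of the groups were fully apart for 7 of the 42 (16.7%), where 31.1% of all tested genes had groups that did not overlap. An unadjusted p under 0.05 was reached by 7 members (16.7%) and by 24.6% of all tested genes. The median log2 fold change was 0.02 over the members and 0.00 over all tested genes, and the median absolute log2 fold change was 0.08 and 0.09. The members' median turned to -0.02 on the TPM scale, -0.01 over plain read sums and -0.02 with voom, so no direction is read from it. For 38 of the 42 (90.5%) the absolute log2 fold change was under 0.2, and for 82.7% of all tested genes. These are changes of log2(FPKM + 1), which are understated at low FPKM. Of the 42 members, 23 averaged between 1 and 5 FPKM, and the shares were not matched for level. By subfamily, 0 of 7 Fbxw, 0 of 12 Fbxl and 2 of 23 Fbxo members were called.

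**Figure D3:**
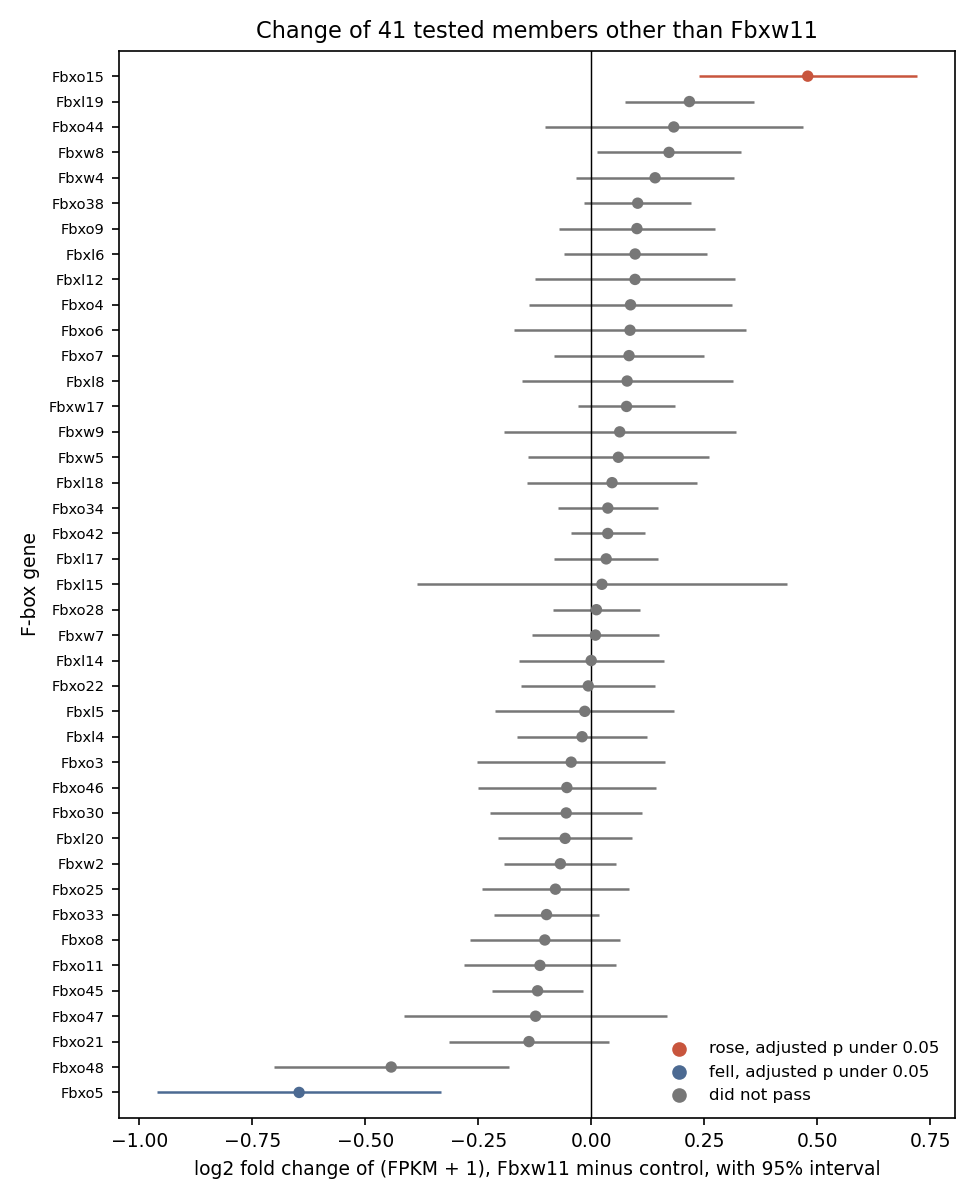
Difference of mean log2(FPKM + 1), Fbxw11 minus control, of 41 of the 42 tested members other than Fbxw11, with 95% intervals from limma (points and horizontal lines). Fbxo15 (red, rose) and Fbxo5 (blue, fell) passed the test, and Fbxo48 and Fbxl19 (grey) are the next farthest from 0 among members whose intervals exclude it.

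Fbxo5 encodes Emi1, an inhibitor of the anaphase-promoting complex that is made in S and G2 phase, and is thus an F-box protein best known outside the SCF ligases. It stood at 5.43, 4.88 and 5.21 FPKM in control libraries 1 to 3 and at 2.36, 2.77 and 3.84 FPKM in Fbxw11 libraries 1 to 3. Each Fbxw11 library was below each control library, and Fbxw11 library 3 lay closest to the controls. The counts behind them were 177 to 188 reads in a control library and 77 to 131 in an Fbxw11 library. The means of 5.18 ± 0.277 and 2.99 ± 0.763 FPKM (SD, n = 3) differed 1.73-fold. The test used log2(FPKM + 1), which understates changes at low FPKM. On that scale the log2 fold change was -0.65 (SE 0.131, 95% interval -0.96 to -0.33, limma adjusted p = 0.0296). Fbxo5 kept this direction under all 15 alternatives, but its call was lost with no filter on low values (adjusted p = 0.0958) and without control library 1, 2 or 3 or Fbxw11 library 1 or 2 (adjusted p from 0.0689 to 0.105). Of its windows of 50 bases, 8.99% also occur in transcripts of Glcci1, Gm16042 or Gm45062.

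Genes of the cell cycle fell beside Fbxo5. The list of 27 genes, which span entry into S phase to mitosis, was chosen with earlier results of these data known. All 27 were tested, 24 fell and 0 rose, where 4.64% of all tested genes fell and 4.60% rose. Their median log2 fold change was -0.48 (0.00 over all tested genes). The replication helicase subunits Mcm6 and Mcm7 (-0.64 and -0.54), the ribonucleotide reductase subunit Rrm2 (-0.71) and the proliferation marker Mki67 (-0.73) had the smallest p-values. The 27 genes summed to between 566 and 591 FPKM in the controls and, without overlap, to between 398 and 409 FPKM with the Fbxw11 vector. The 3 that did not pass were Plk1 (-0.38) and Aurkb (-0.30), kinases of mitosis, and Fzr1 (0.08), an activator of the anaphase-promoting complex. Fewer cycling cells and less RNA per cell cannot be told apart in bulk libraries, and the part of cell cycle phase in the level of Fbxo5 was not tested.

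The promoter of Fbxo5 was read for sequence elements known from genes of the cell cycle, because Fbxo5 fell beside that list. It is shown from 250 bases before to 50 bases after the RefSeq start on the minus strand (GRCm38.p6, chr10:5805416-5805715), 5′ to 3′ along the gene, with CCAAT and TTTGAA, searched on both strands, in capitals. CCAAT is the NF-Y binding box, and TTTGAA is the cell cycle genes homology region (CHR).
Fbxo5: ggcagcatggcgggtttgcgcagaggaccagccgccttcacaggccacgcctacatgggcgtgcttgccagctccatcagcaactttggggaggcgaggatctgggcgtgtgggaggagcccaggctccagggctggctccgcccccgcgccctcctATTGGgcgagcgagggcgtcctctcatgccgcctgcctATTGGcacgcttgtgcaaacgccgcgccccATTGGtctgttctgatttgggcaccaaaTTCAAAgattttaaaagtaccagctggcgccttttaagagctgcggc

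Fbxo5 held 3 CCAAT boxes in reverse orientation, whose first bases lie 93, 55 and 25 bases before the start, and 1 reverse CHR from base 4 after the start. Of 32851 RefSeq promoters of the same length, 37.4% held CCAAT, 17.9% held TTTGAA and 6.95% held both. Of the 31 tested members with a promoter in the table, 11 held CCAAT, 7 held TTTGAA, and 3 held both: Fbxo5, Fbxo48 and Fbxo9. A member counted if the promoter at any of its starts held the element. The shares over all promoters count each promoter, so the units differ. The letters of the E2F site searched (TTTCCCGC, TTTGGCGC, TTCCCGCC and TTGGCGCC, both strands, which overlap one another) were found in 3.77% of all promoters and in Fbxl14 among these members. A match is a description of the sequence.

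Fbxo48, a short and little-studied member, was the next lowest. It stood at 2.81, 2.45 and 1.92 FPKM in control libraries 1 to 3 and at 1.45, 1.62 and 1.38 FPKM in Fbxw11 libraries 1 to 3. The groups did not overlap, but control library 3 lay closer to the Fbxw11 libraries than the other controls did, and only 53 to 106 reads per library support these values. The means were 2.39 ± 0.452 and 1.48 ± 0.122 FPKM (SD, n = 3), a log2 fold change of -0.44 (SE 0.109, limma adjusted p = 0.0542). The adjusted p moved under the threshold in 5 of 15 alternatives, from 0.0250 with voom on recovered reads to 0.0465 without both libraries numbered 3. Its promoter at the first of 2 RefSeq starts (GRCm38.p6, chr11:16951125-16951424, + strand) is shown beside that of Fbxo5 because it holds the same pair of elements, a CCAAT whose first base is 74 bases before the start and a reverse CHR from base 7 after it, again in capitals.
Fbxo48: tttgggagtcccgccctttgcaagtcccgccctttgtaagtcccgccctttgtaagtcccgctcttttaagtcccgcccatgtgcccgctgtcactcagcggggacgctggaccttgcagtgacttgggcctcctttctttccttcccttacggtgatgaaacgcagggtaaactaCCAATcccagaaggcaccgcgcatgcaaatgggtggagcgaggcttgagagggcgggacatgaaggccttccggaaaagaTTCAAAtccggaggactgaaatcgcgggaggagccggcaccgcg

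Fbxo9, which holds both elements as well, did not pass and had the other sign, at 2.32 ± 0.202 FPKM without and 2.56 ± 0.189 FPKM with the Fbxw11 vector (SD, n = 3, log2 fold change 0.10, limma adjusted p = 0.448).

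Fbxo15, known as a marker of embryonic stem cells, was the member that rose. It stood at 2.53, 1.80 and 2.44 FPKM in control libraries 1 to 3 and at 3.60, 3.68 and 3.27 FPKM in Fbxw11 libraries 1 to 3. Every Fbxw11 library was above every control library, and control library 2 was the lowest of all. The means of 2.26 ± 0.402 and 3.52 ± 0.221 FPKM (SD, n = 3) differed 1.56-fold, from 116 to 140 reads per control and 187 to 221 per Fbxw11 library. On the log2(FPKM + 1) scale of the test the log2 fold change was 0.48 (SE 0.101, 95% interval 0.24 to 0.72, limma adjusted p = 0.0332). Its direction held under all 15 alternatives, while the call was lost under 9 of them, among them the removal of any library in turn (adjusted p from 0.0543 to 0.111). Fbxo15 spans 84952907 to 84999598 of chromosome 18 as the file gives it (build not stated) and overlaps Timm21, a gene of the mitochondrial import machinery on the opposite strand, by 5334 bases. Timm21 stood at 6.56 ± 0.313 and 7.63 ± 0.682 FPKM (SD, n = 3, log2 fold change 0.19, limma adjusted p = 0.144). Without strand, reads from the overlap cannot be told apart, though no window of 50 bases was shared between annotated transcripts of Fbxo15 and any other gene.

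**Figure D4:**
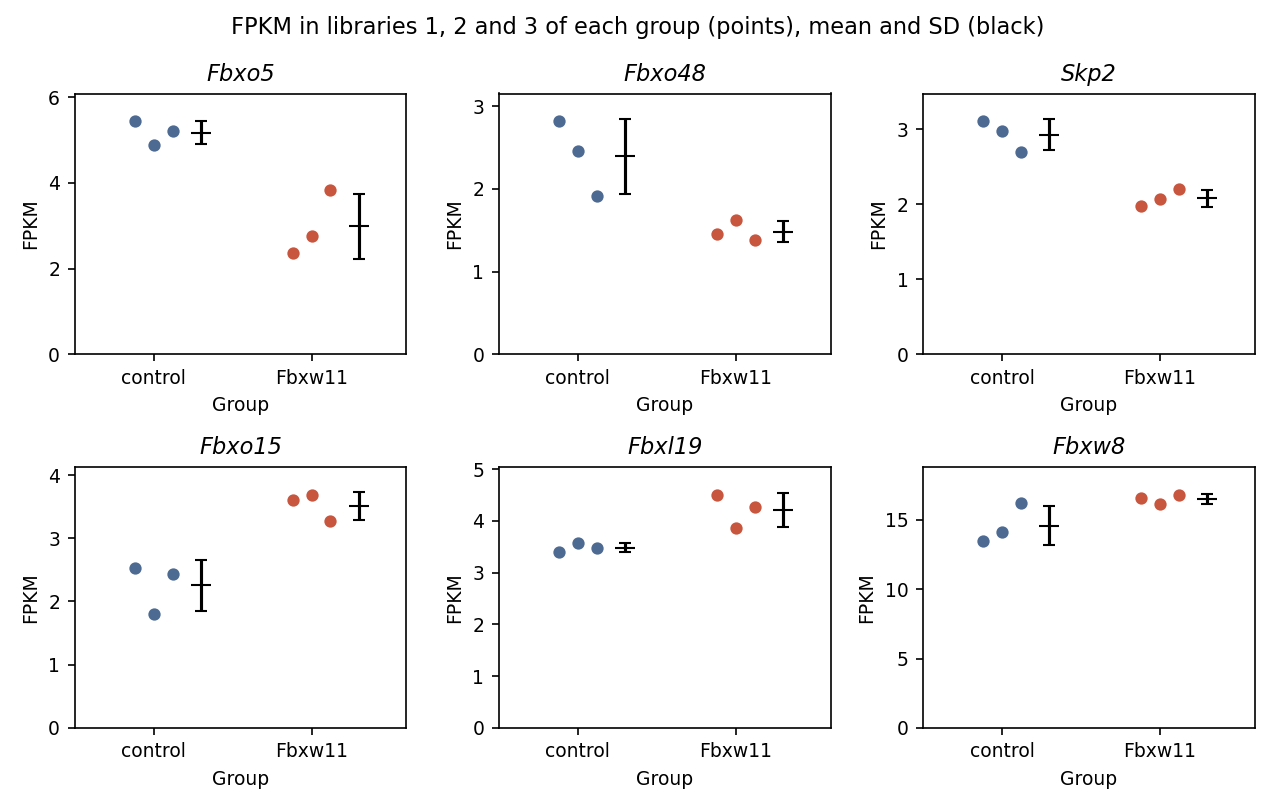
FPKM of 5 members and of Skp2, an F-box gene named otherwise, in libraries 1 to 3 of each group (blue control, red Fbxw11), with the group mean and SD in black and the vertical axis from 0. Fbxo5, Fbxo48 and Skp2 lie lower in each Fbxw11 library than in any control library, Fbxo15 and Fbxl19 lie higher, and the groups of Fbxw8 overlap.

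The WD40 members other than Fbxw11 did not pass the test. The 7 tested were Fbxw8, Fbxw5, Fbxw17, Fbxw4, Fbxw2, Fbxw7 and Fbxw9, with log2 fold changes between -0.07 and 0.17. Limma and voom each called 0 of them, and 1 was at an unadjusted p under 0.05. Of all tested genes, limma called 9.24%, and 24.6% had an unadjusted p under 0.05. With 7 genes, 0 calls cannot be told apart from that share. Fbxw7, the receptor for cyclin E, Myc and Notch, was at 3.14 ± 0.0398 and 3.17 ± 0.239 FPKM (SD, n = 3), and the 95% interval of its log2 fold change ran from -0.13 to 0.15. Fbxw8, the partner of the cullin Cul7, stood at 13.4, 14.1 and 16.2 FPKM in control libraries 1 to 3 and at 16.6, 16.2 and 16.8 FPKM in Fbxw11 libraries 1 to 3. The groups overlapped through control library 3, and the log2 fold change of 0.17 (SE 0.067) had a limma adjusted p of 0.179, or 0.0351 without that library. Cul7 itself averaged 0.243 ± 0.0376 and 0.177 ± 0.0260 FPKM, control before Fbxw11, and was not tested.

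The leucine-rich repeat members did not pass either. Of 12 tested, 0 were called, 2 reached an unadjusted p under 0.05, and voom called 0. Over all tested genes the limma shares were 9.24% and 24.6%, and 12 genes are too few to set 0 calls apart from that. Fbxl19, which has a CpG-binding CXXC domain and is known to target the IL-33 receptor ST2, was highest of these in its change. It stood at 3.40, 3.57 and 3.47 FPKM in control libraries 1 to 3 and at 4.50, 3.86 and 4.28 FPKM in Fbxw11 libraries 1 to 3. All Fbxw11 libraries were above the controls, with a log2 fold change of 0.22 (SE 0.060, 95% interval 0.07 to 0.36, limma adjusted p = 0.0771). Fbxl5, the iron-sensing receptor for IRP2, was at 4.64 ± 0.534 and 4.57 ± 0.317 FPKM, and its 95% interval was -0.21 to 0.18 on the log2 scale.

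Most of the abundant members belong to the Fbxo group, and their groups of libraries overlapped. Fbxo11, the receptor for the B cell repressor BCL6, stood at 19.1, 19.9 and 18.0 FPKM in control libraries 1 to 3 and at 16.2, 17.0 and 19.3 FPKM in Fbxw11 libraries 1 to 3. Its Fbxw11 libraries 1 and 2 were below the controls and library 3 among them, with a log2 fold change of -0.11 (SE 0.070, limma adjusted p = 0.373). Fbxo38, known to ubiquitinate PD-1 in T cells, stood at 16.1, 15.5 and 16.4 FPKM in control and at 17.7, 18.0 and 16.1 FPKM in Fbxw11 libraries (0.10, SE 0.049, limma adjusted p = 0.262). Its Fbxw11 library 3 lay inside the control range.

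Fbxo42, Fbxo22 and Fbxo28 were the flattest of the abundant genes. Fbxo42 stood at 16.5, 17.3 and 17.3 FPKM in control and at 17.5, 17.2 and 17.7 FPKM in Fbxw11 libraries, with a 95% interval of -0.05 to 0.12 on the log2 scale. Fbxo22, a receptor for the transcription repressor BACH1, stood at 14.2, 14.9 and 16.7 FPKM in control and at 15.0, 15.7 and 14.7 FPKM in Fbxw11 libraries (interval -0.16 to 0.14). Fbxo28 stood at 13.5, 14.3 and 14.1 FPKM in control and at 13.9, 14.6 and 13.8 FPKM in Fbxw11 libraries (interval -0.09 to 0.11). For all 3 the sign of the log2 fold change turned under at least 1 alternative.

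Among less abundant Fbxo genes, Fbxo45, a neuronal F-box protein that pairs with the ubiquitin ligase Mycbp2, was lower in each Fbxw11 library (7.09 ± 0.248 and 6.45 ± 0.121 FPKM, SD, n = 3), with a log2 fold change of -0.12 and a limma adjusted p of 0.140. Fbxo44 stood at 1.31, 1.29 and 1.31 FPKM in control libraries 1 to 3 and at 2.13, 1.37 and 1.40 FPKM in Fbxw11 libraries 1 to 3. Fbxw11 library 1 stood apart and carried most of its log2 fold change of 0.18 (SE 0.119, limma adjusted p = 0.402), which was 0.05 without that library.

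F-box genes with other names showed a fall in Skp2. Of 10 such genes 5 were tested and 1 fell, where 4.64% of all tested genes fell. The groups did not overlap for 4 of the 5, against 31.1% of all tested genes. Skp2, the receptor for the cyclin-dependent kinase inhibitor p27 and itself tied to S phase, stood at 3.10, 2.98 and 2.70 FPKM in control libraries 1 to 3 and at 1.97, 2.07 and 2.20 FPKM in Fbxw11 libraries 1 to 3. The groups did not overlap, with means of 2.93 ± 0.205 and 2.08 ± 0.113 FPKM (SD, n = 3), which differed 1.41-fold. On the log2(FPKM + 1) scale of the test the log2 fold change was -0.35 (SE 0.065, limma adjusted p = 0.0220). Its call was lost with no filter, with a replicate block, and without control library 1 or 2 or Fbxw11 library 1 or 2. Ccnf, cyclin F, was at 3.04 ± 0.0778 and 2.61 ± 0.162 FPKM, also without overlap (log2 fold change -0.16, limma adjusted p = 0.139), and was called by voom. The helicase gene Fbh1 did not pass but was higher in each Fbxw11 library (12.4 ± 0.533 and 13.3 ± 0.262 FPKM, log2 fold change 0.10, limma adjusted p = 0.207). Among the histone demethylase genes, Kdm2b was lower without overlap (log2 fold change -0.16, limma adjusted p = 0.306) and the groups of Kdm2a overlapped. Neither passed.

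The partners of F-box proteins did not pass the test. Of 37 listed symbols of the SCF core, the neddylation pathway and the COP9 signalosome, 35 were in the table and 32 were tested. Limma called 0 of them, against 9.24% of all tested genes. An unadjusted p under 0.05 was reached by 4 of the 32, against 24.6% of all tested genes. The groups did not overlap for 4 of the 32 (12.5%), against 31.1% of all tested genes. Voom called 3 lower (Cul1, Nedd8 and Cand1). The log2 fold change was above 0 for 15 and below 0 for 17. Dcun1d2, a cofactor of cullin neddylation, had the smallest p of the list and was higher with the Fbxw11 vector, at 4.81 ± 0.116 and 5.48 ± 0.280 FPKM (SD, n = 3) with groups that did not overlap (log2 fold change 0.16, limma adjusted p = 0.102). Cul1, the scaffold, was lower in each Fbxw11 library, at 33.0 ± 0.777 and 30.2 ± 1.58 FPKM (SD, n = 3, log2 fold change -0.13, limma adjusted p = 0.154). Nedd8, the modifier that activates cullins, was also lower without overlap, at 58.1 ± 2.24 and 51.6 ± 4.52 FPKM (-0.17, limma adjusted p = 0.187). Skp1, the adaptor, was at 39.7 ± 1.14 and 36.5 ± 2.70 FPKM with groups that overlapped (-0.12, limma adjusted p = 0.248). The Fbxw11 transcript, at 271 FPKM, thus stood above those of Cul1 and Skp1 in the Fbxw11 libraries on the per-length scale. That scale uses the length of the endogenous gene, also for reads of the vector. In control libraries, at 36.1 FPKM, the Fbxw11 transcript was between them.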

How the data were processed

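RNA sequencing of 6 RAW264.7 libraries was analysed, 3 per group. The deposited table gives FPKM, scaled by the authors to gene length and library size, for every gene and library. The library sizes behind these values were not plain sums of reads. They were 1.014 to 1.018 times the summed recovered reads in the controls. In the Fbxw11 libraries they were 0.987 to 0.993 times that sum. The submitters' processing notes name mm10, but gene positions in the table differ from a GENCODE annotation of that build, so coordinates printed from the table carry no build. The sources used here give no aligner, counting tool, strand setting or filter. Reads per gene were recovered by dividing FPKM times gene length by the value of 1 read in that library (100% of values above 0 came within 0.02 reads of a whole number). The members and lists were chosen with earlier results of these data known.

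Values were analysed as log2(FPKM + 1), which understates changes of genes with low FPKM. The 10898 genes that averaged 1 FPKM or more were tested with limma 3.58.1 in R 4.3.3 (eBayes, trend on, two-sided, group as the only term), with Benjamini-Hochberg adjustment over all of them and a threshold of 0.05. "Rose" and "fell" mean past that threshold. Full values are given for Fbxw11, members past the threshold, the 6 most abundant and the 6 most changed tested members. Other genes are named with means or fold changes, and some (Fbxw7, Fbxl5, Fbxo45, Fbxo9, Fbxo32 and the genes at 0) were picked after their values were seen. Of 15 alternatives, 12 were planned and 3 (plain read sums, voom on recovered reads, both libraries numbered 3 left out) were chosen after seeing the data. The procedure was run on simulated data with the same spread setting for every gene and independent libraries. That is a simpler setting than these data, so no error rate is read from it. Replicates were not copies of each other (chi-square over degrees of freedom 2.57 to 6.68 for pairs of a group). Sequences came from GENCODE M21 transcripts and RefSeq promoters (GRCm38.p6), aligned with Biopython 1.88. Motifs were chosen with the results known. The values of 1 tested member are not reported here on their own.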

Additional observations from a re-analysis of the deposited data

How the results depend on the processing

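Fbxw11 kept its call under all 15 alternatives (log2 fold change 2.84 to 2.91). Beside it, the main analysis called 2 members, 1007 genes over the table, 1 F-box gene named otherwise and 0 SCF partners. With no filter on low values these were 0 members, 596 genes and 0 F-box genes named otherwise. With voom on recovered reads they were 3 members, 1559 genes (520 rose and 1039 fell), 2 F-box genes named otherwise and 3 SCF partners. On the TPM scale 348 genes rose and 712 fell, and over plain read sums 381 and 691, against 501 and 506 in the main analysis. The median of all tested genes was -0.04 and -0.03 against 0.00. Plain read sums replace the authors' library sizes, and the balance of rises and falls thus depended on the scaling used. With a library left out in turn, calls ranged from 0 to 2 members, from 409 to 801 genes and from 0 to 1 F-box genes named otherwise. Without control library 1 or 2 or Fbxw11 library 1 or 2, 0 members were called, without Fbxw11 library 3 1 (Fbxo5), and without control library 3 Fbxo48 and Fbxw8. Between 20 and 26 of the 27 cell cycle genes fell under every alternative.

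The replicate block called 1 member (Fbxo5), 621 genes and 0 F-box genes named otherwise. Same-numbered libraries correlated in their deviations at 0.0361, 0.0405 and 0.189, and control library 1 correlated best with Fbxw11 library 2 (0.148), so the numbers were not taken as pairs.

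Signs that turned belonged to genes that did not pass. Fbxo42 was at -0.00498 on the TPM scale (log2 fold change, also below). Fbxo28 was at -0.0308 on the TPM scale, -0.0237 over plain read sums and -0.0258 with voom, and from -0.0132 to 0.0270 with a library left out. Fbxo22 was at 0.0738 without both libraries numbered 3, and from -0.0550 to 0.0542 with a library left out. Fbxo48, Fbxo15 and Fbxo5 rest on 53 to 221 reads per library, and the part of depth in their calls was not tested.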
